A study of Homo sapiens with 9 samples.

Results

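The leukocyte adhesion molecules described here are 10 genes chosen by name, ICAM1, ICAM2, VCAM1, SELE, SELP, F11R, JAM2, JAM3, CD99 and ALCAM, out of 29740 gene symbols counted by RNA sequencing. Of these, 8 passed the filter on low counts and were tested among 14740 genes, while SELE and SELP did not pass. The cells were HMEC-1, a single immortalised line of human microvascular endothelial cells, so the results describe that line. The groups were TMAO 24H and TMAO 48H, treated with 50 µM TMAO (trimethylamine N-oxide, a metabolite that the liver makes from gut bacterial products), and CTRL, untreated cells, with 3 libraries each. All treated cells were kept in medium with reduced serum. Because the study pooled its 24H and 48H controls, TMAO exposure and time in culture cannot be told apart in any comparison with CTRL, and the labels do not say that the libraries came from separate cultures. The paper's statistics section gives at least 3 independent experiments for its experimental data, without naming RNA sequencing. The p-values therefore measure the spread between these libraries, which may be technical.

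Endothelial adhesion molecules act in sequence when leukocytes leave the blood. Selectins (SELE, SELP) slow the flowing cell by binding its glycans, immunoglobulin-like receptors (ICAM1, ICAM2, VCAM1) then hold it by binding leukocyte integrins, and molecules at endothelial junctions (F11R, JAM2, JAM3, CD99) and ALCAM take part in its passage between endothelial cells. ICAM1, VCAM1 and SELE are known for low levels in resting endothelium and for induction by inflammatory cytokines through NF-kB, whereas ICAM2 and the junctional molecules are mostly made constitutively.

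Total estimated counts per library ranged from 25205756 to 36927373. Replicate 1 of TMAO 24H held 31.5% ribosomal RNA counts against 1.64% to 7.46% in the other libraries. All 12 endothelial markers passed the filter, with summed levels of 2639 to 3335 CPM (counts scaled to library size) over the 9 libraries, although CLDN5 was low. Of the 12, 8 were lower at 48H than in CTRL at an adjusted p under 0.05 and 0 higher, beside 5.29% and 5.14% of all tested genes, and their summed level was 3001 to 3335 CPM in CTRL, 2992 to 3181 CPM at 24H and 2639 to 2875 CPM at 48H. From 24H to 48H 6 of the 12 were lower and 1 higher at an adjusted p under 0.05, beside 3.77% and 3.77% of all tested genes. The higher gene, VWF, was called (log2 fold change 0.51, adjusted p = 0.00112), beside 0.862% of all tested genes called higher. Its log2 fold change from CTRL was -0.42 at 24H (adjusted p = 0.082 in edgeR) and 0.09 at 48H. The 8 leukocyte markers summed to 1.26 to 1.83 CPM, with CD3E at 0 in every library and PTPRC at no more than 0.0994 CPM. The 6 fibroblast and mural markers summed to 51.2 to 57.2 CPM, mostly PDGFRB, with DCN and LUM at or near 0. Of the 4 tested, 1, ACTA2, was called higher at 48H than in CTRL (log2 fold change 0.74, adjusted p = 0.00194), beside 0.882% of all tested genes. The 4 lymphatic markers summed to 111 to 126 CPM in CTRL and at 24H and to 82.1 to 84.8 CPM at 48H. There 1 of the 3 tested, PDPN, was called lower than in CTRL, beside 0.916% of all tested genes. The sum was mostly PDPN, with PROX1 and LYVE1 at no more than 0.295 and 0.447 CPM. The 4 epithelial markers (EPCAM, CDH1, KRT5, KRT14) summed to 55.6 to 100.2 CPM in 8 libraries. They summed to 8.74 CPM in replicate 3 of TMAO 48H, which stands apart in this respect. The 48H values of ICAM1, ICAM2, VCAM1 and CD99 against CTRL are therefore also given without it. Those of the marker and list genes are given only with it. In bulk RNA, fewer cells of a type and less RNA per cell cannot be told apart.

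ICAM1, the endothelial ligand of the leukocyte integrins LFA-1 and Mac-1, was the single adhesion gene of the 10 called at 48H. Its normalised counts (counts scaled to a common library size) were 686, 724 and 654 in the CTRL libraries, 649, 627 and 700.01 at 24H, and 1124, 1269.5 and 1157 at 48H. The 48H libraries were all above every CTRL and 24H library, while the CTRL and 24H libraries overlapped. The mean rose from 688 ± 35.3 in CTRL to 1184 ± 76.1 at 48H (SD, n = 3 each), a 1.72-fold rise. This was a log2 fold change of 0.78 (SE 0.0662, 95% interval 0.64 to 0.93), with an adjusted p of 2.09e-05 in edgeR's quasi-likelihood test, the 15th lowest p of the 14740 genes. At 24H the log2 fold change from CTRL was -0.06 (95% interval -0.20 to 0.08, adjusted p = 0.913). The difference between the time-points was tested directly and was 0.85 on the log2 scale (SE 0.0663, adjusted p = 6.52e-06), 1.80-fold. Without replicate 3 of TMAO 48H the rise from CTRL was 0.80 (adjusted p = 7.91e-05), so it was as large without the library that stands apart in epithelial markers. Without replicate 1 of TMAO 24H, the library rich in ribosomal RNA, the difference between the time-points was 0.83 (adjusted p = 3.33e-05).

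**Figure D1:**
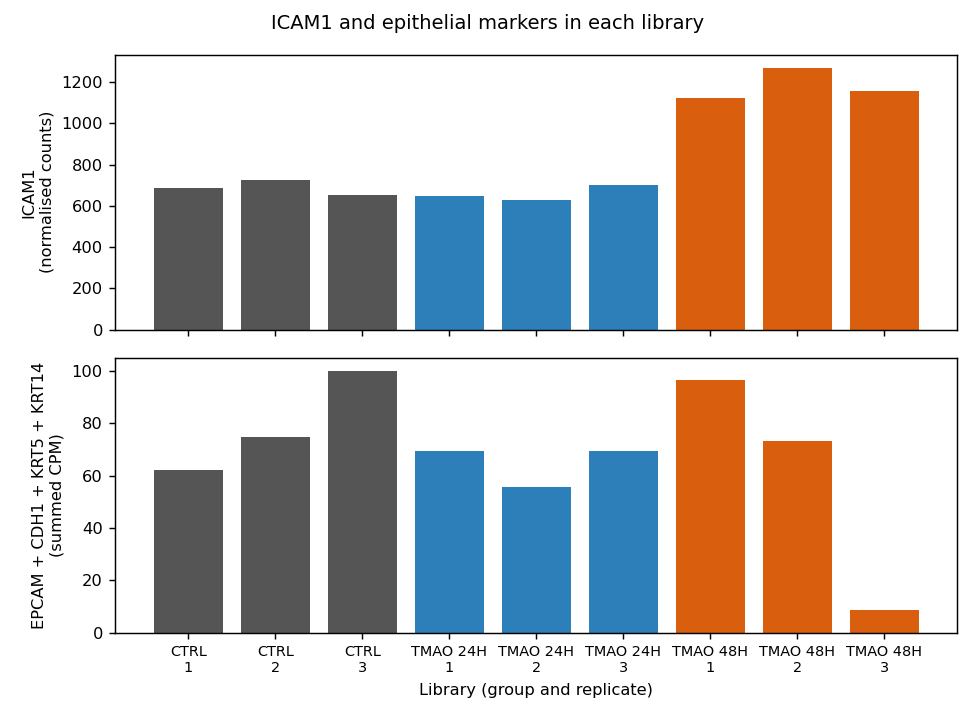
ICAM1 normalised counts beside the summed CPM of the 4 epithelial markers in each of the 9 libraries, by group. Replicate 3 of TMAO 48H has 8.74 CPM of epithelial markers against 55.6 to 100.2 CPM in the others, while its ICAM1 count of 1157 lies between those of the other TMAO 48H libraries.

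A gene was called when its adjusted p (Benjamini-Hochberg, over all 14740 genes) was under 0.05 and it differed 1.4-fold or more. At 48H against CTRL this held for 1.80% of all tested genes (265, with 130 or 0.882% higher and 135 or 0.916% lower) and for 1 of the 8 tested adhesion genes. At 24H against CTRL it held for 0.0475% of all genes and for 0 of the 8 by edgeR and by DESeq2, and 0 of the 8 had an unadjusted p under 0.05 in edgeR (7.24% of all genes). At 48H against 24H it held for 1.71% of all genes (0.862% higher, 0.848% lower) and for 1 of the 8, again ICAM1. At an unadjusted p under 0.05, which allows for no multiple testing, there were 5 of the 8 at 48H against CTRL (25.8% of all genes) and 4 at 48H against 24H (22.1%). With so few members, a share of 1 in 8 is no result about the adhesion genes as a group. The median log2 fold change of the 8 was 0.10 at 48H and -0.02 at 24H against CTRL, beside 0.0040 and -0.00042 over all tested genes.

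**Figure D2:**
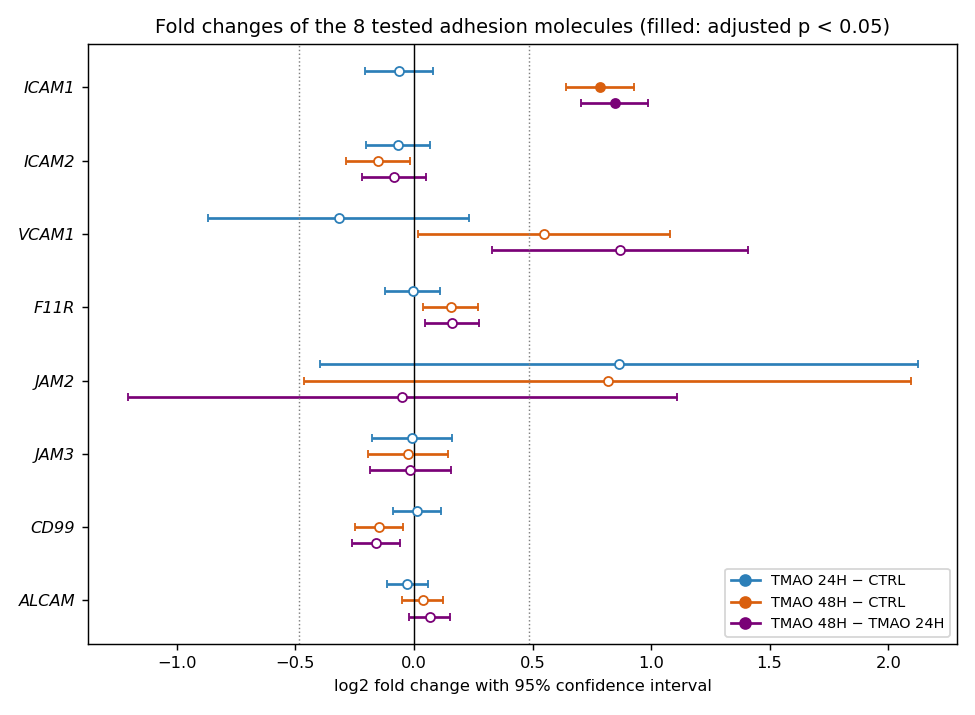
Log2 fold changes of the 8 tested adhesion genes with 95% intervals, for TMAO 48H against CTRL, TMAO 24H against CTRL and TMAO 48H against TMAO 24H (horizontal axis, log2 units); filled points have an adjusted p under 0.05 and dotted lines mark 1.4-fold. The ICAM1 intervals for both 48H comparisons lie well above 0, from 0.64 upwards, and the JAM2 intervals are the widest of the 8.

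The immediate upstream sequences of ICAM1, VCAM1 and SELE are shown because these genes are the members classically induced together by NF-kB. Their levels differed widely here, and a link between sequence and level was not tested. Each is the 250 bases before the RefSeq transcription start in GRCh38.p14, 5′ to 3′ on the gene's strand, at chr19:10270870-10271119 (plus strand) for ICAM1, chr1:100719492-100719741 (plus) for VCAM1 and chr1:169734080-169734329 (minus) for SELE. Capitals mark matches on either strand to the motifs searched, and some matches overlap.
ICAM1: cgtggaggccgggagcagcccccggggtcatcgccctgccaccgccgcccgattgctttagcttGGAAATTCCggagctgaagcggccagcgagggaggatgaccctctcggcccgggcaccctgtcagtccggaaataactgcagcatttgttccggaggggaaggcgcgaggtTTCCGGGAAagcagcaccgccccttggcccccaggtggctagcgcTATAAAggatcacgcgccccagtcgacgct
VCAM1: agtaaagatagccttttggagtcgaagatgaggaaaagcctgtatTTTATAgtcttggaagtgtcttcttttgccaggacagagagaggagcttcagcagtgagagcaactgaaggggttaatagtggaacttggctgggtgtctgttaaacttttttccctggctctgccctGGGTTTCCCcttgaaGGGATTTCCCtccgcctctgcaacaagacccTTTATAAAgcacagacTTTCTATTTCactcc
SELE: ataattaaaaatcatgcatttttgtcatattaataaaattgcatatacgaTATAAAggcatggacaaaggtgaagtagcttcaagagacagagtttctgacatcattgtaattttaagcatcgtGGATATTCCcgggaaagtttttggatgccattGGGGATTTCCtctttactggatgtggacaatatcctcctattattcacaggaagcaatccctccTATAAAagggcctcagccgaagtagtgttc

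The motifs, searched on both strands, were the 10-base NF-kB consensus, the AP-1 site TGANTCA, the GAS site (TTC, any 3 bases, GAA), the ISRE core (GAAA, any 2 bases, GAAA) and the TATA box TATAAA. The table of promoters held 6 of the 10 members (ICAM1, VCAM1, SELE, SELP, ALCAM and CD99). The NF-kB consensus was in 5.2% of 35091 promoters and in those of VCAM1 (62 to 53 bases before the start) and SELE (94 to 85). ICAM1 held it only without its first base, at 186 to 178 bases before the start, a shortened form chosen after the data were seen that 13.8% of all promoters held and that SELP also held. VCAM1 and SELE had a further match to the shortened form, at 77 to 69 and 126 to 118 bases before the start. ICAM1 alone of the 6 held a GAS site (75 to 67 bases before the start, 6.57% of all promoters), and VCAM1 alone held an ISRE core (15 to 6, 3.02%). A TATA box, found in 10.7% of all promoters, lay 30 to 25 bases before the start in ICAM1 and SELE and 29 to 24 in VCAM1. Further matches to its letters lay at 200 to 195 in SELE and, on the opposite strand, at 205 to 200 and 31 to 26 in VCAM1. None of the 6 held the AP-1 site (6.57% of all promoters), and ALCAM and CD99 held none of the motifs in these 250 bases. A match describes letters in this window and not a bound site.

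VCAM1, the ligand of the integrin VLA-4, was detected at a low level. Its normalised counts were 34.9, 33.7 and 34.1 in CTRL, 17.8, 29.8 and 33.8 at 24H, and 45.2, 43.8 and 61.8 at 48H. The 48H libraries were all above CTRL and 24H, replicate 3 the highest, and replicate 1 of TMAO 24H was the lowest of the 9. The log2 fold change at 48H was 0.55 (95% interval 0.02 to 1.08), which did not pass the test (adjusted p = 0.179), and without replicate 3 of TMAO 48H it was 0.38 (adjusted p = 0.399). At 24H it was -0.32 (95% interval -0.87 to 0.23, adjusted p = 0.866), with -0.10 without replicate 1 of TMAO 24H and -0.50 without replicate 3. Between 48H and 24H the difference was 0.87 (95% interval 0.33 to 1.41, adjusted p = 0.0529), just outside the threshold. It passed with only genes of at least 10 counts in every library tested (adjusted p = 0.0387), and without replicate 1 of TMAO 24H it was 0.64 (adjusted p = 0.183).

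ICAM2, a constitutive endothelial ligand of LFA-1, lay between 1117 and 1406 normalised counts in the 9 libraries. Its normalised counts were 1365, 1365 and 1406 in CTRL, 1245, 1354 and 1346 at 24H, and 1285, 1117 and 1319 at 48H. Every treated library was below every CTRL library at both time-points, and the treated groups overlapped each other. The log2 fold change was -0.15 at 48H (95% interval -0.29 to -0.02, adjusted p = 0.139) and -0.07 at 24H (adjusted p = 0.897), and neither passed the test. Without replicate 2 of TMAO 48H the first was -0.08 (adjusted p = 0.43), and without replicate 3 it was -0.20 (adjusted p = 0.0722). Without replicate 1 of TMAO 24H the second was -0.03 (adjusted p = 0.999). ICAM2 estimated counts were not whole numbers in 9 of the 9 libraries (tolerance 0.01), unlike those of the other 9 members, so they include fractions of reads.

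The selectins were almost absent. SELE (E-selectin) had counts of 1, 0 and 2 in CTRL, 0, 1 and 1 at 24H and 2, 2 and 0 at 48H, 9 counts in all. SELP (P-selectin), which endothelial cells store in granules, had counts of 0, 1 and 0 in CTRL, 0, 5 and 0 at 24H and 0, 0 and 0 at 48H, with 5 of its 6 counts in replicate 2 of TMAO 24H. No group stood apart, and no fold change is given. A count of 0 allows up to 3 counts, or 0.0869 to 0.115 CPM depending on the library, and this limit covers counting error only. Counts stayed at or below 2 for SELE and 5 for SELP in every library. Differences this close to 0 could not be measured at this depth.

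**Figure D3:**
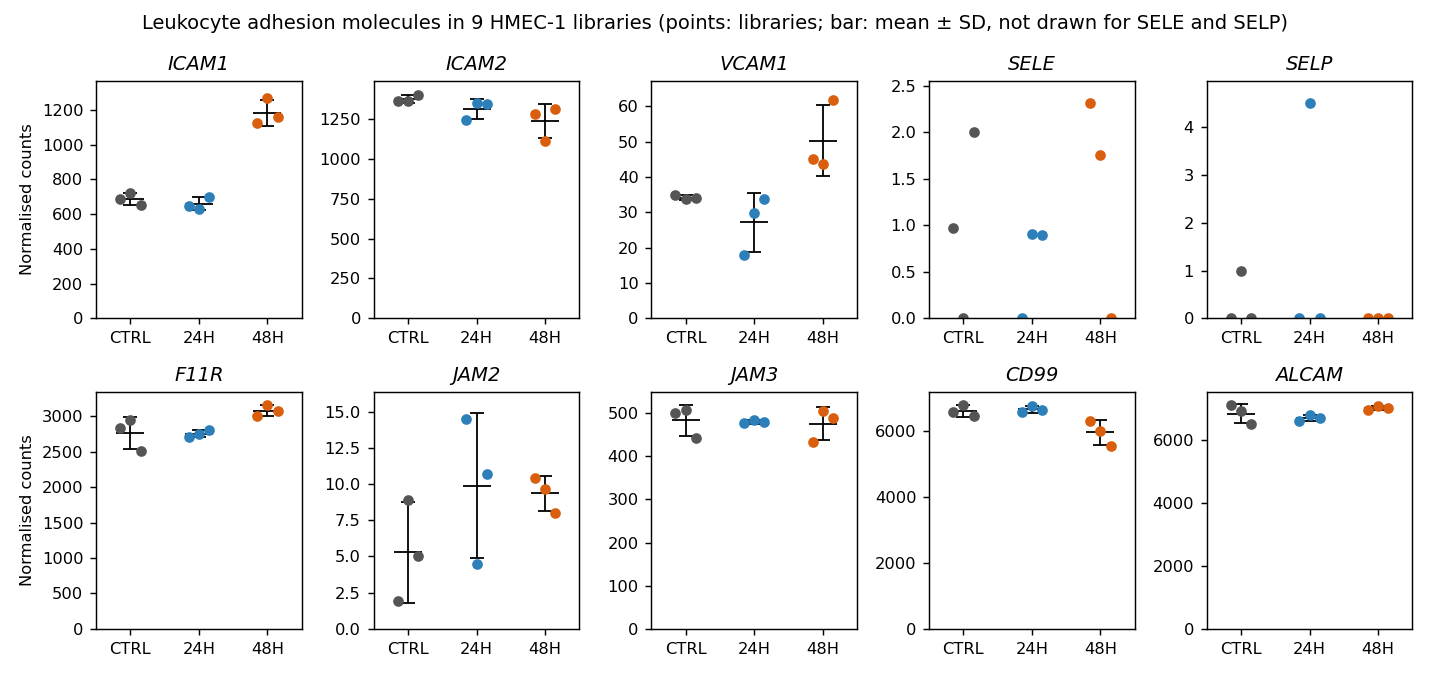
Normalised counts of the 10 adhesion genes in each library of CTRL, TMAO 24H and TMAO 48H, with a panel and linear vertical axis for each gene; points are libraries and bars the mean ± SD, not drawn for SELE and SELP. The ICAM1 libraries at 48H lie between 1124 and 1269.5, above all others, and the selectins stay at 5 counts or fewer.

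The junctional adhesion molecules bind leukocyte integrins and each other at endothelial cell contacts. F11R (JAM-A), which binds LFA-1, had normalised counts of 2837, 2947 and 2513 in CTRL, 2706, 2752 and 2807 at 24H, and 3007, 3153 and 3074 at 48H. The 48H libraries were above all others and CTRL replicate 3 was the lowest. The log2 fold change at 48H was 0.15 (95% interval 0.04 to 0.27, adjusted p = 0.0829) against CTRL and 0.16 (adjusted p = 0.0904) against 24H, outside the threshold, and -0.01 (adjusted p = 0.991) at 24H against CTRL. Without CTRL replicate 3 the first was 0.08 (adjusted p = 0.228) and the second was 0.15 (adjusted p = 0.0239). JAM3 (JAM-C), a partner of JAM2 and of Mac-1, had normalised counts of 499.7, 507 and 442 in CTRL, 476, 485 and 479 at 24H, and 432, 504 and 489 at 48H. The 3 groups overlapped, and the log2 fold change at 48H was -0.02 (95% interval -0.19 to 0.15, adjusted p = 0.887). JAM2 (JAM-B) had only 2, 9 and 5 counts in CTRL, 13, 5 and 12 at 24H and 9, 11 and 7 at 48H, with at least 10 counts in 3 of the 9 libraries. Its log2 fold change was 0.82 at 48H (95% interval -0.46 to 2.10, adjusted p = 0.422) and 0.86 at 24H (95% interval -0.40 to 2.13, adjusted p = 0.823), and both intervals include 0. It was 0.42 and 0.47 at 48H and 24H without CTRL replicate 1, and 1.41 and 1.46 without CTRL replicate 2. At 24H it was 0.52 without replicate 1 of TMAO 24H.

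CD99, which works on both the leukocyte and the endothelial side of the last step of transmigration, was the highest member per length. Its normalised counts were 6583, 6798 and 6454 in CTRL, 6579, 6778 and 6647 at 24H, and 6322, 6023 and 5559 at 48H. The 48H libraries were all below the others, and replicate 3, poor in epithelial markers, was the lowest. The log2 fold change at 48H was -0.15 (95% interval -0.25 to -0.05, adjusted p = 0.0618), outside the threshold in edgeR, and DESeq2 gave -0.15 with an adjusted p of 0.0261. Without replicate 3 of TMAO 48H it was -0.10 (adjusted p = 0.173), and without replicate 1 it was -0.19 (adjusted p = 0.0185). Against 24H it was -0.16 (adjusted p = 0.0567), and at 24H against CTRL 0.01 (adjusted p = 0.983). ALCAM, the ligand of CD6 on lymphocytes, had normalised counts of 7104, 6911 and 6505 in CTRL, 6609, 6802 and 6709 at 24H, and 6961, 7083 and 7011 at 48H. All groups overlapped except that the 48H libraries were above those at 24H, and the log2 fold change at 48H against CTRL was 0.04 (95% interval -0.05 to 0.12, adjusted p = 0.612). The libraries of the 2 groups did not overlap at 48H against CTRL in 5 of the 8 tested members (F11R, ICAM1 and VCAM1 higher, CD99 and ICAM2 lower), beside 27.8% of all tested genes (14.7% higher, 13.0% lower). At 24H against CTRL this held for 1 of the 8, ICAM2, beside 14.2% (6.73% higher, 7.52% lower). At 48H against 24H it held for 5 (CD99 lower, and ALCAM, F11R, ICAM1 and VCAM1 higher), beside 27.6% (14.7% higher, 12.9% lower). At 48H against CTRL 8 of the 12 endothelial markers were lower too, while VWF and ESAM had log2 fold changes of 0.09 and 0.15, and their part in the values of CD99 and ICAM2 was not tested.

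Levels of different genes were compared only per kilobase of merged exon length, taken from GENCODE 29, as CPM per kilobase. In CTRL the order was CD99 (103 ± 2.71), ALCAM (47.7 ± 2.13), ICAM2 (29.7 ± 0.518), F11R (18.9 ± 1.54), ICAM1 (6.99 ± 0.359), JAM3 (4.08 ± 0.301), VCAM1 (0.365 ± 0.00645), JAM2 (0.0373 ± 0.0247), SELE (0.00849 ± 0.00859) and SELP (0.00329 ± 0.00569), all as mean ± SD of 3 libraries. The library ranges of neighbours overlapped only between JAM2 and SELE and between SELE and SELP. At 48H ICAM1 reached 12.03 ± 0.773, still below F11R at 21.0 ± 0.499, and VCAM1 0.536 ± 0.107, so the order of the first 8 stayed as in CTRL. In GENCODE 29, ICAM1 overlaps a pair of antisense genes, and ICAM2, SELE, JAM2 and JAM3 each overlap at least 1 gene on the opposite strand, while F11R, SELE and JAM2 overlap at least 1 on their own strand, for JAM2 the pseudogenes RNGTTP1 and FDX1P2. Whether the counting used strand is not given in the sources used here, so reads of such partners cannot be told apart.

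Among 24 other endothelial receptors for adhesion and transmigration, 21 were tested. At 48H against CTRL 3 were higher and 6 lower at an adjusted p under 0.05, beside 10.4% of all tested genes (5.14% higher, 5.29% lower). The median log2 fold change of the 21 was -0.11 at 48H. Apart from PODXL and THY1, the receptors given here were named after their values were seen. PECAM1 and CDH5, proteins of endothelial junctions, fell, with log2 fold changes of -0.25 (adjusted p = 0.0215) and -0.26 (adjusted p = 0.0181). PODXL, a sialomucin, fell by 0.36 (adjusted p = 0.00481), and CLEC14A, ENG and CD34 by 0.30, 0.25 and 0.20. THY1, which binds Mac-1, rose by 0.47 (adjusted p = 0.00147), and CD47 and BCAM each by 0.19. PECAM1, CDH5, ENG and ESAM are on both this list and that of the endothelial markers, so the lists are not independent. Of 17 junction and scaffold proteins 0 were higher and 3 lower at 48H, with a median log2 fold change of -0.02. PTPRB, a phosphatase bound to VE-cadherin, fell by 0.44 (adjusted p = 0.00167) and PLXND1 by 0.29. Of 20 docking structure and cytoskeletal linkers 1 was higher and 3 lower, with a median of -0.09, CAV1 (caveolae) falling by 0.32 and CD81 (a tetraspanin) by 0.25. Of 9 sheddases, which cut adhesion molecules from the surface, and their regulators, 0 were higher and 2 lower, MMP14 by 0.22 and RHBDF2 by 0.21.

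Transcription factors and inhibitors that act on adhesion genes numbered 26, all tested. At 48H against CTRL 4 were higher and 2 lower at an adjusted p under 0.05, beside 5.14% and 5.29% of all tested genes, with a median of 0.07. RELB, an NF-kB subunit, was the single called gene, with mean normalised counts of 175 ± 20.7 in CTRL and 266 ± 29.1 at 48H and a log2 fold change of 0.61 (adjusted p = 0.00791). JUN rose by 0.26 (adjusted p = 0.00412), and NFKBIA, named after its values were seen, by 0.30 (adjusted p = 0.0119). NFKB1 and RELA, likewise named afterwards, had log2 fold changes of 0.07 (adjusted p = 0.404) and -0.04 (adjusted p = 0.668). At 24H 2 fell in edgeR (0.0950% of all genes passed), FOS by 1.14 (adjusted p = 0.003) and JUN by 0.31 (adjusted p = 0.03), and of these FOS passed the 1.4-fold threshold. DESeq2 gave 3, with KLF2, named after its values were seen, which had a log2 fold change of -0.38 in edgeR (adjusted p = 0.0655). From 24H to 48H 6 were higher and 2 lower, beside 7.53% of all genes (3.77% higher, 3.77% lower), with FOS at 1.37, NR4A1 at 0.96 and RELB at 0.76 on the log2 scale.

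Of 18 receptors for inducing signals, mostly cytokines but also the ligands of Toll-like, histamine and thrombin receptors, 17 were tested. Of these, 4 were higher and 2 lower at 48H against CTRL, beside the same 5.14% and 5.29% of all tested genes. TLR3, a sensor of viral RNA, rose by 0.63 (adjusted p = 0.00194) and IL1RAP, the co-receptor for IL-1, by 0.34 (adjusted p = 0.00959). Of 13 counter-receptors that leukocytes carry, 7 did not pass the filter and 6 were tested. Of those, ITGA4, a chain of the VCAM1 receptor VLA-4, fell by 0.35 (adjusted p = 0.00058), and GLG1, an E-selectin ligand, had -0.15 (adjusted p = 0.0629). Of 11 enzymes that build selectin ligands 9 were tested, CHST2 fell by 0.30 (adjusted p = 0.0262), and ST3GAL3 had 0.15 (adjusted p = 0.0742). At 24H against CTRL, 0 of the 99 tested genes on the lists other than the transcription factors passed an adjusted p under 0.05 in edgeR or in DESeq2, and 3 had an unadjusted p under 0.05 in edgeR, beside 0.0950% and 7.24% of all genes.

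**Figure D4:**
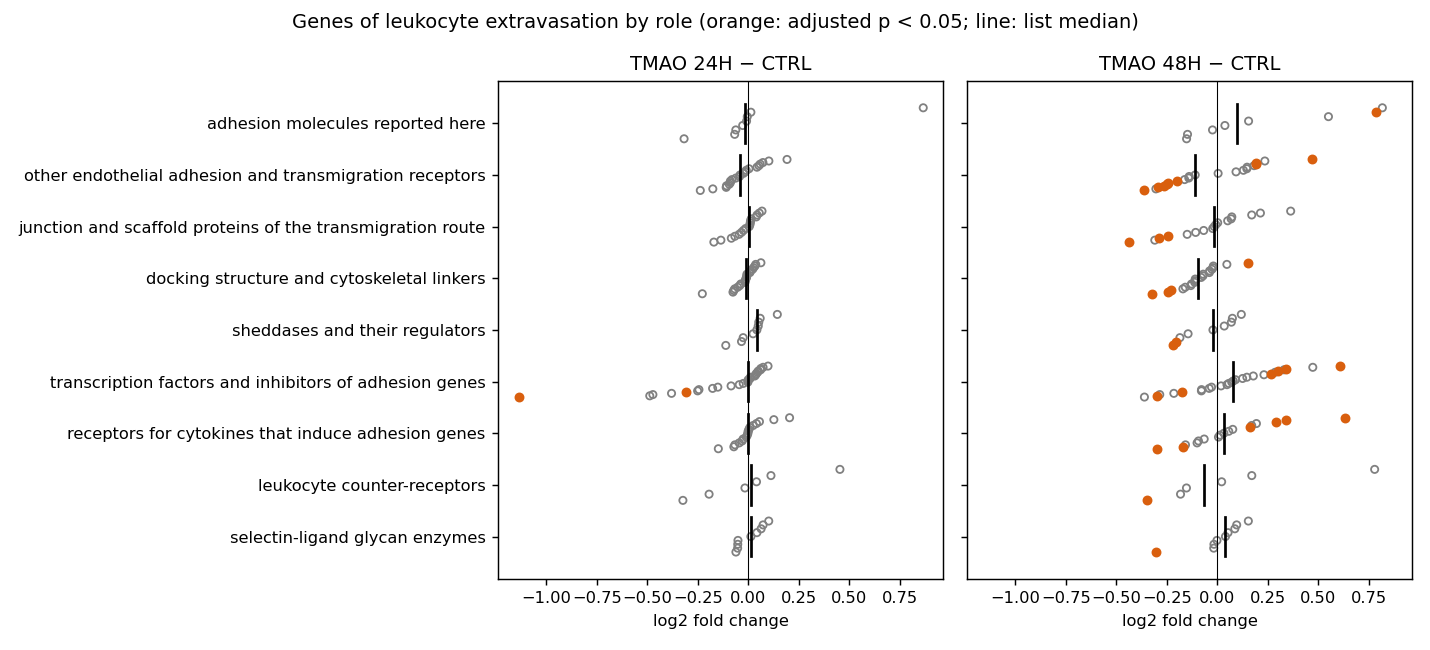
Log2 fold changes of TMAO 24H (left) and TMAO 48H (right) against CTRL for the tested genes of each list, with a row for each list, a point for each gene (orange where the adjusted p is under 0.05) and a line at the list median. At 48H ICAM1 lies at 0.78, and the list medians range from -0.11 for the other receptors to 0.10 for the 8 adhesion genes.

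The 5 genes whose log2 CPM followed ICAM1 most closely over the 9 libraries, out of 12312 compared, were HLA-E (Pearson r = 0.995), PPP1R15A (0.989), AIF1L (0.984), HMGCS1 (0.979) and AK3 (0.978). The points share the 3 groups and their libraries, so these are descriptions and carry no p. All 5 changed less than ICAM1 at 48H against CTRL, by 0.23, 0.30, 0.19, 0.28 and 0.29 on the log2 scale. HLA-E, a non-classical MHC class I molecule, had mean normalised counts of 9616 ± 160.2 in CTRL, 9411 ± 173 at 24H and 11241 ± 295 at 48H.

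**Figure D5:**
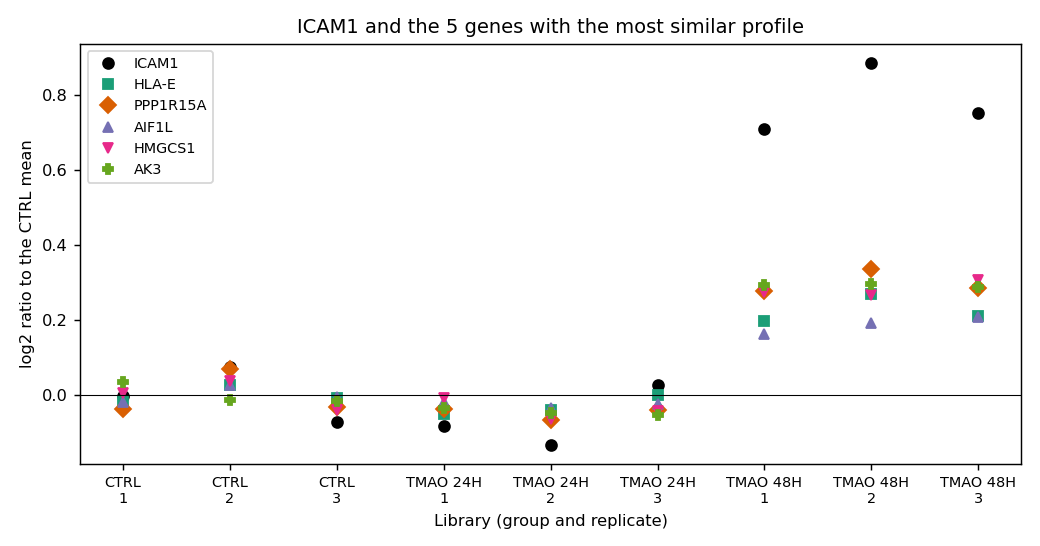
Level of ICAM1 and of the 5 genes most correlated with it in each of the 9 libraries (horizontal axis), as the log2 ratio to the gene's own CTRL mean (vertical axis). All 6 are highest at 48H, with ICAM1 moving furthest, by 0.78 on the log2 scale.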

How the data were processed

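The series holds RNA sequencing of HMEC-1, in 3 libraries each for untreated cells, 24H of TMAO and 48H of TMAO (50 µM). The authors ran the nf-core RNAseq pipeline, with Trim Galore named in the submitters' processing notes, and deposited estimated counts (expected counts) per gene, without normalisation. The quantifier, genome build and annotation are not given in the sources used here. Groups and replicate numbers came from the labels.

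The estimated counts, of which 8.37% were not whole, were rounded. The tests were run with edgeR 4.0.16 (R 4.3.3): filterByExpr, TMM factors and glmQLFit (legacy = FALSE) on the 9 libraries together, with Benjamini-Hochberg adjustment over 14740 genes and calls at an adjusted p under 0.05 and 1.4-fold. These are the thresholds of the study's methods, which used DESeq2. With 3 libraries against 3, an exact permutation test cannot go below p = 0.1. The procedure was tested on simulated data. Normalised counts are scaled to the geometric mean of the effective library sizes.

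The members and lists were chosen with earlier results of these data known. The text names all members, the list genes called in any comparison (at most 6 per list) or otherwise the 2 of lowest p at 48H, and the 5 genes most correlated with ICAM1 among those with a mean of at least 50 normalised counts. Other genes are marked as named after their values were seen. Lists are described by counts and medians, with no set test. The alternatives were DESeq2 1.42.0, RLE factors, other filters, other fold thresholds, the older fit, a fit of the 2 groups compared, the replicate block, removal of ribosomal RNA genes and leaving out each library. Promoter sequences came from RefSeq (GRCh38.p14), which lacked ICAM2, F11R, JAM2 and JAM3 in the table used. No library was a copy of another in its own group, and copies across groups were not looked for.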

Additional observations from a re-analysis of the deposited data

Results flagged for a closer look

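ICAM1 differed between the 48H and 24H libraries, which share their controls. TMAO exposure and time in culture cannot be told apart in this difference. The 48H minus 24H difference was 0.85 on the log2 scale (edgeR adjusted p = 6.52e-06), and all 3 libraries at 48H were above all 3 at 24H. The log2 fold change from CTRL was 0.78 for 48H and -0.06 for 24H.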

How the results depend on the processing

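ICAM1 was called under all 17 alternatives at 48H against CTRL (log2 fold change 0.73 to 0.82) and at 48H against 24H (0.79 to 0.89). The number of called adhesion genes was the same under every alternative except at 48H against 24H with at least 10 counts in every library, where it was 2, VCAM1 being added. Over all genes, 265 were called at 48H against CTRL, 7 at 24H and 252 between the time-points. With no fold threshold these were 1537, 14 and 1110, and when glmTreat tested for a change beyond 1.4-fold they were 23, 0 (87 at an unadjusted p under 0.05 in glmTreat) and 50. At 24H DESeq2 called 12 and the fit with the replicate block 1. Leaving out each library gave 187 to 339, 0 to 9 and 193 to 257, the 0 at 24H being without replicate 2 of TMAO 24H (690 genes at an unadjusted p under 0.05 in edgeR). Libraries of the same replicate number did not deviate together more than others did. Correlations were -0.12 to 0.09 over these 9 pairs and -0.10 to 0.16 over the 18 pairs of unlike number. Such correlations over all tested genes cannot show that the libraries were unpaired. The block kept the calls of adhesion genes while moving the gene counts to 214 and 213 in the 48H comparisons. Of 403 alternative values of the adhesion genes' log2 fold changes, 14 changed sign, all on leaving out a library, with ranges at 48H against CTRL of -0.0893 to 0.0396 for JAM3 and -0.00278 to 0.0653 for ALCAM, at 24H of -0.0674 to 0.0423 for F11R, -0.0662 to 0.0271 for JAM3 and -0.00209 to 0.0325 for CD99, and between the time-points of -0.41 to 0.29 for JAM2 and -0.0596 to 0.0489 for JAM3. Another 10 moved past the threshold, for CD99, F11R and VCAM1. Counts near 0 limit SELE, SELP and JAM2.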
